A study of Mus musculus with 9 samples.

Results

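Cd7, Mturn, Nsg2, Arl4c, Slc6a19 and A630023P12Rik are 6 genes of the 24060 in the expression table. They were selected on the measured RNA levels themselves, as genes much higher in activated CD8 T cells of the clone R7-II than in those of its companions R7-I and R7-III, so that difference is given here as a description, without a test. All 6 were found by symbol and all 6 are among the 11330 genes kept because their maximum level exceeded 1 TPM (a transcript level corrected for length, whose total is the same in each library). The 3 clones come from transnuclear mice, made by transferring the nucleus of a single mature CD8 T cell specific for the ROP7 peptide of Toxoplasma gondii, so each clone is 1 mouse line with 1 T cell receptor. Splenocytes of each line received ROP7 peptide at 10 µM and IL-2 at 10 ng/ml overnight, live CD3+ CD8+ cells that bound the H-2Ld ROP7 tetramer were sorted to a stated purity of 90 to 95%, and polyadenylated RNA was sequenced in 3 biological replicates per clone. The labels rank the affinity for the cognate peptide as R7-I above R7-III above R7-II, and self-reactivity as R7-III above R7-I above R7-II. R7-II is therefore the lowest in both rankings and is also a separate mouse line, and the parts of affinity, self-reactivity and line in any value below cannot be told apart. Every library was of activated cells, and unstimulated cells were not analysed here, so the values do not show whether a level was kept or gained after stimulation.

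CD8 T cells recognise peptide on MHC class I through the T cell receptor, and a strong signal makes a naive cell leave quiescence, change its surface proteins and divide. Naive T cells hold a set of RNAs for lymph node entry, egress and quiescence that falls after a strong signal, while effector RNAs rise. The 6 genes belong to no single pathway. Cd7 encodes a glycoprotein of the immunoglobulin superfamily on T and NK cells. Arl4c encodes a small GTPase of the ARF-like family that recruits cytohesins to the plasma membrane. Slc6a19 encodes B0AT1, the sodium-dependent transporter that takes up neutral amino acids in kidney and intestine. Mturn (maturin) and Nsg2, a small membrane protein of neuronal vesicles, are known mostly from the nervous system, and A630023P12Rik is a long noncoding RNA with no established role.

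The genes lie on 5 chromosomes, in the coordinates of GRCm38, the build the authors call mm10. Cd7 lies on the minus strand at chr11:121036747-121039478, and Nsg2 on the plus strand of the same chromosome at chr11:31999704-32059211. Mturn is at chr6:54681624-54703855 (plus strand), Arl4c at chr1:88698225-88702191 (minus), Slc6a19 at chr13:73679745-73700780 (minus) and A630023P12Rik at chr5:110514923-110525980 (plus). The GENCODE annotation places an antisense gene over Cd7 (Gm11775), over Mturn (Gm28402) and over Slc6a19 (Slc6a19os). The reads were not strand-specific, so reads from a gene and its antisense partner cannot be told apart. Slc6a19os was in the table and its highest level was 0.32 TPM, while Gm11775 and Gm28402 were not analysed here.

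Promoter windows from RefSeq, reaching from 250 bases before to 50 bases after an annotated start on GRCm38.p6, were matched for 5 of the 6 genes, all but Cd7, and Nsg2 had 2. Those of Mturn and Arl4c are printed because these genes had the most similar profiles of the 6. Those of Nsg2, Slc6a19 and A630023P12Rik are printed because their profiles differed more from that pair, that of Slc6a19 the least. The windows are chr6:54681374-54681673 (plus strand) for Mturn, chr1:88702142-88702441 (minus strand) for Arl4c, chr11:32000450-32000749 (plus strand, the second start) for Nsg2, chr13:73692587-73692886 (minus strand) for Slc6a19 and chr5:110514673-110514972 (plus strand) for A630023P12Rik. Those of Nsg2 and Slc6a19 lie at annotated starts inside the gene span given above, downstream of its 5′ end. Each is written 5′ to 3′ on the strand of its gene, and capitals mark exact matches on either strand to CACCC (bound by Krüppel-like factors), CTTTGA (TCF-1 and LEF-1), GTAAACA (FOXO factors) or CCGGAA (ETS factors).
Mturn: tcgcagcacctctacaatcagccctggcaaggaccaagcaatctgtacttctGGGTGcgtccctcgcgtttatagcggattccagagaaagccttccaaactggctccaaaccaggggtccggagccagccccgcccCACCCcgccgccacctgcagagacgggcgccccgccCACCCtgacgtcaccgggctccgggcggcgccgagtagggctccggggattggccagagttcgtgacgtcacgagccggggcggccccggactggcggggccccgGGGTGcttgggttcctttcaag
Arl4c: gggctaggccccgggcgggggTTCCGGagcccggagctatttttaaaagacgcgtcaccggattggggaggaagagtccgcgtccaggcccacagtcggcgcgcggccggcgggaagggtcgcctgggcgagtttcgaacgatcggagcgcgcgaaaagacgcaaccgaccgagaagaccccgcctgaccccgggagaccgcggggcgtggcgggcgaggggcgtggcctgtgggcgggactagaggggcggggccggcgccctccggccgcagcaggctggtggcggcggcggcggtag
Nsg2: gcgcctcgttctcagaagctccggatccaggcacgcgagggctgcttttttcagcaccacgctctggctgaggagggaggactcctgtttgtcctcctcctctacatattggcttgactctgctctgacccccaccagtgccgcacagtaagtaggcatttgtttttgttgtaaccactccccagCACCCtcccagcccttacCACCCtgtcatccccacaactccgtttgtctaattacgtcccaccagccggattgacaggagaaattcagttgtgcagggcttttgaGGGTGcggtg
Slc6a19: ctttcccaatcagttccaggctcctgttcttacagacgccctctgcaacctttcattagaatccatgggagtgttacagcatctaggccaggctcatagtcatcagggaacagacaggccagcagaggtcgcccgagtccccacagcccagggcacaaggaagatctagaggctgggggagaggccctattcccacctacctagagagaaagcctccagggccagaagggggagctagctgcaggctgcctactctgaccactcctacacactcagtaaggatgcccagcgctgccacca
A630023P12Rik: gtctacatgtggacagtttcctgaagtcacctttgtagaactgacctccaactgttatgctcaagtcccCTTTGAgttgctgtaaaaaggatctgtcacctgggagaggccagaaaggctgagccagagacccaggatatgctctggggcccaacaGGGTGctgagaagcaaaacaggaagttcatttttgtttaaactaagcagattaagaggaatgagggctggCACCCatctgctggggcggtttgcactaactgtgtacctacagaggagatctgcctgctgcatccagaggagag

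CACCC occurred 4 times in the Mturn window, 3 times in the printed Nsg2 window and 2 times in that of A630023P12Rik. The Nsg2 window that is not printed held none of the marked strings. It was present in 3 of the 6 member windows and in 57.5% of all 32851 windows of the table. CTTTGA matched once, in A630023P12Rik, against 16.0% of all windows, and CCGGAA matched once, in Arl4c, against 14.9%. GTAAACA was in none of the 6, against 3.65% of all windows. Among the windows of tested genes alone the shares were 62.7% for CACCC, 11.8% for CTTTGA, 29.2% for CCGGAA and 2.54% for GTAAACA. The windows of Mturn and Arl4c shared none of the 4 marked letter strings. Other strings were searched too, and both windows held GGGCGG (4 matches in Mturn and 3 in Arl4c) and CCAAT (1 in each). GGGCGG was in 62.8% and CCAAT in 38.3% of the windows of tested genes. G and C made up 68.0% and 74.0% of these windows, where the median of all windows was 52.7%. That median is not given for the windows of tested genes alone. A match of this kind is a string of letters and not a measured binding site.

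Cd7 was at 0.67, 0.83 and 0.98 TPM in R7-I replicates 1 to 3, at 25.21, 16.33 and 27.04 TPM in R7-II, and at 0.66, 1.34 and 1.03 TPM in R7-III. Every R7-II library was above all 6 others, and the lowest of them was 12.2 times the highest library outside R7-II, while R7-I and R7-III overlapped. The means were 22.9 ± 5.73 TPM in R7-II, 0.827 ± 0.155 in R7-I and 1.01 ± 0.340 in R7-III (SD, n = 3 libraries each). Differences between clones are given as the difference of mean log2(TPM + 1), a scale on which the change of a gene with a low TPM is understated. On it Cd7 in R7-II was 3.68 above R7-I and 3.55 above R7-III, the largest of these differences among the 6 genes in both comparisons. As a ratio of mean TPM these were 27.7 and 22.6 and not the largest. Nsg2, Slc6a19 and Mturn had larger ratios against R7-I, and Slc6a19 and A630023P12Rik against R7-III.

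**Figure D1:**
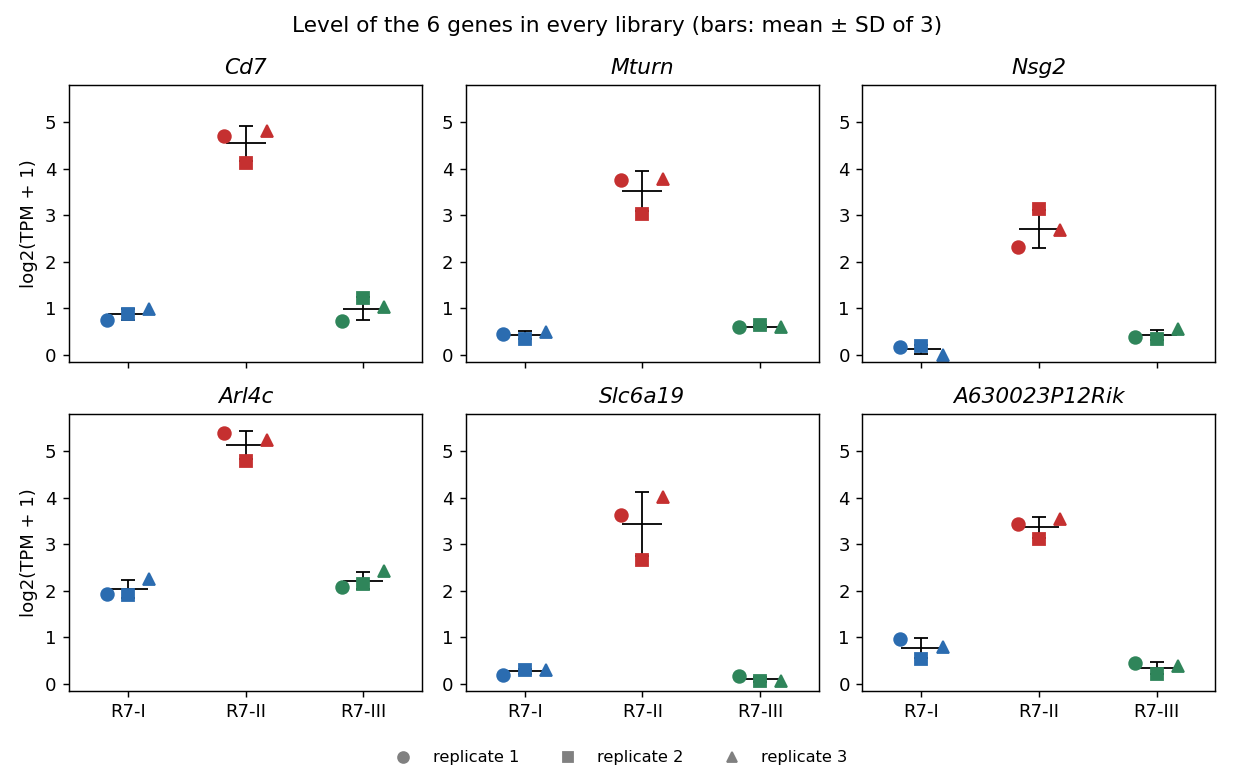
Level of each of the 6 genes in the 9 libraries as log2(TPM + 1), by clone, with one symbol per replicate and the mean ± SD of the 3 libraries as bars. All R7-II points sit above every R7-I and R7-III point in each panel, and the replicate 2 square is the lowest R7-II point for 5 genes and the highest for Nsg2.

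Arl4c was the most abundant of the 6 genes in every library. Its levels were 2.83, 2.74 and 3.75 TPM in R7-I, then 40.70, 26.64 and 36.53 TPM in R7-II, and then 3.21, 3.45 and 4.35 TPM in R7-III. The R7-II libraries stood apart from the other 6 with no overlap, and R7-I and R7-III overlapped. With 34.6 ± 7.22 TPM in R7-II against 3.11 ± 0.559 in R7-I and 3.67 ± 0.601 in R7-III, the log2 differences were 3.10 and 2.92. Arl4c had the smallest ratios of mean TPM of the 6, 11.1 and 9.43, and was the only one above 2 TPM in the other clones.

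Slc6a19 was at 0.14, 0.23 and 0.23 TPM in R7-I, at 11.30, 5.35 and 15.15 TPM in R7-II, and at 0.12, 0.04 and 0.04 TPM in R7-III. No R7-I or R7-III library came near the R7-II range, and the R7-II libraries themselves differed widely, with a coefficient of variation of 46.6%, the highest of the 6 genes. The log2 differences were 3.17 from R7-I and 3.34 from R7-III. The ratios of mean TPM were 53.0 and 159, and the second of these divides by a mean of 0.0667 TPM in a table written to 2 decimals.

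Mturn was at 0.36, 0.26 and 0.40 TPM in R7-I, at 12.47, 7.14 and 12.80 TPM in R7-II, and at 0.50, 0.55 and 0.51 TPM in R7-III. Its R7-II libraries were again all higher than the others, with a mean of 10.8 ± 3.18 TPM. The log2 differences were 3.10 from R7-I and 2.92 from R7-III. On log2(TPM + 1) they match those of Arl4c to 2 decimals, although the level of Arl4c in R7-II was higher. The ratios of mean TPM did not match. They were 31.8 and 20.8 for Mturn against 11.1 and 9.43 for Arl4c.

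Nsg2 was at 0.12, 0.13 and 0 TPM in R7-I, at 3.98, 7.75 and 5.39 TPM in R7-II, and at 0.31, 0.26 and 0.46 TPM in R7-III. It was the least abundant of the 6 in R7-II, at 5.71 ± 1.90 TPM, and still did not overlap with the other clones. The log2(TPM + 1) differences were 2.59 and 2.28, the smallest of the 6 in both comparisons on that scale. As a ratio of mean TPM, Nsg2 had the largest value of the 6 against R7-I, 68.5, over a mean of 0.0833 TPM, and 16.6 against R7-III.

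A630023P12Rik, the noncoding RNA, was at 0.96, 0.45 and 0.72 TPM in R7-I, at 9.79, 7.63 and 10.64 TPM in R7-II, and at 0.36, 0.15 and 0.31 TPM in R7-III. Its R7-II libraries were the closest to each other of any of the 6 genes, with a coefficient of variation of 16.6%, and all were above the other 6 libraries. The log2 differences were 2.60 from R7-I and 3.02 from R7-III.

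Over the 6 genes, the median log2 difference was 3.10 between R7-II and R7-I and 2.97 between R7-II and R7-III, where the medians over all genes tested were 0.17 and 0.12. The 3 R7-II libraries exceeded the other 6 for 6 of 6 genes, as the choice of genes fixed, and this was so for 41.7% of all genes tested. With median-of-ratios scaling, which brings the median over all genes to near 0, the differences from R7-I lay between 2.47 (A630023P12Rik) and 3.54 (Cd7) and those from R7-III between 2.19 (Nsg2) and 3.43 (Cd7). In R7-II the genes ranked Arl4c, Cd7, Mturn, Slc6a19, A630023P12Rik and Nsg2 by mean TPM. The lowest Arl4c library (26.64 TPM) fell within the Cd7 range, and Cd7 lay above Mturn in every R7-II library, while each later gene in this order overlapped with the next. Even in R7-II these were not abundant RNAs: 59.4% of the genes tested had a lower mean TPM than Arl4c, 48.3% a lower one than Cd7 and 22.5% a lower one than Nsg2. Mturn, Nsg2, Slc6a19 and A630023P12Rik exceeded 1 TPM in R7-II alone and passed the filter on low values through that clone, so a difference was built into their presence among the genes tested.

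**Figure D2:**
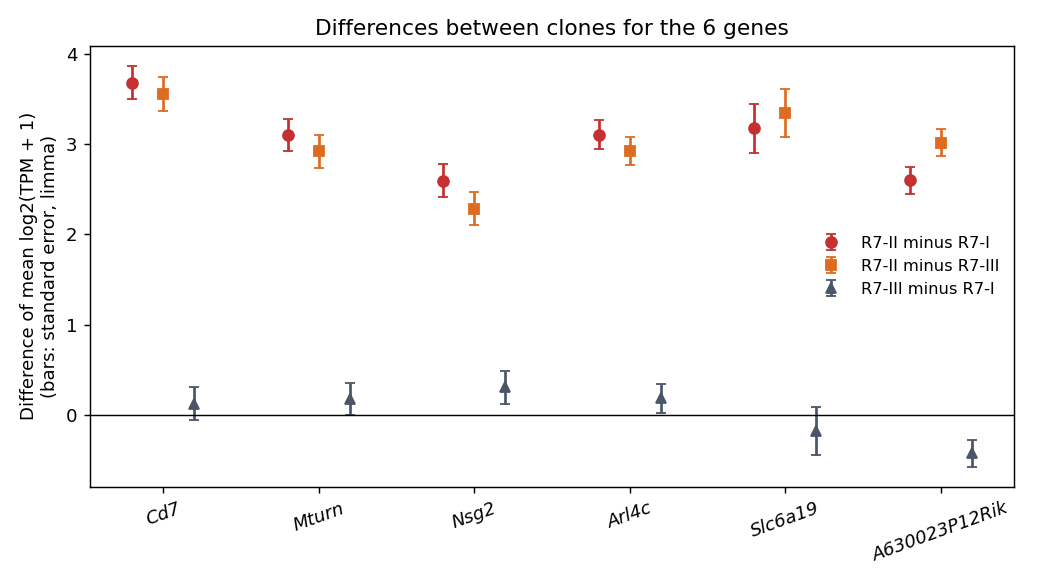
Difference of mean log2(TPM + 1) between clones for the 6 genes, with the standard error of the limma fit as bars. Both differences of R7-II lie between 2.28 and 3.68 for every gene, and R7-III minus R7-I lies between -0.42 and 0.31.

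Between R7-I and R7-III the differences were small on this scale, and their direction was not the same for all genes. The differences of R7-III from R7-I were 0.31 for Nsg2 (SE 0.184), 0.19 for Arl4c (SE 0.156), 0.18 for Mturn (SE 0.179), 0.13 for Cd7 (SE 0.183), -0.17 for Slc6a19 (SE 0.267) and -0.42 for A630023P12Rik (SE 0.150). The median was 0.16, against 0.04 over all genes tested. For 4 of the 6 genes the R7-I and R7-III libraries did not overlap, which was so for 41.9% of all genes tested. Mturn and Nsg2 were the higher ones in R7-III, and Slc6a19 and A630023P12Rik the higher ones in R7-I. All 4 were below 1 TPM in both clones. The study's list of genes most raised in R7-II, which names the others but not A630023P12Rik, was limited to genes whose levels were alike in R7-I and R7-III, so no test is given.

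The R7-II libraries were not interchangeable for these genes. Replicate 2 was the lowest of the 3 for Cd7, Mturn, Arl4c, Slc6a19 and A630023P12Rik and the highest for Nsg2. It was the lowest R7-II library for 49.4% and the highest for 21.8% of all genes tested, and the lowest for 65.2% of the 4726 genes with no overlap between a higher R7-II and both other clones. Relative to the mean of replicates 1 and 3, replicate 2 was at 0.405 for Slc6a19, 0.565 for Mturn, 0.625 for Cd7, 0.690 for Arl4c, 0.747 for A630023P12Rik and 1.65 for Nsg2. The summed level of the 6 genes was 70.8 TPM in replicate 2 against 103.4 and 107.6 TPM in replicates 1 and 3, and lay between 4.64 and 6.70 TPM in the other clones. Without this library, the log2 differences from R7-I rose to 3.90 for Cd7, 3.35 for Mturn, 3.28 for Arl4c, 3.55 for Slc6a19 and 2.72 for A630023P12Rik, and that of Nsg2 became 2.38. None of these moved by more than 1.5-fold.

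Markers of myeloid cells and B cells, and MHC class II genes, were also higher in R7-II, and their sums were also lowest in its replicate 2. Calls in this paragraph are by limma at a Benjamini-Hochberg adjusted p of 0.01. Of all genes tested, 31.9% were called higher in R7-II in both comparisons. The summed level of 9 B cell markers was 74.0, 35.5 and 56.4 TPM in the R7-II replicates, 8.62 to 15.9 TPM in R7-I and 5.14 to 8.06 TPM in R7-III, and 8 of 8 tested were called higher in both comparisons. MHC class II markers summed to 179.4, 111.1 and 177.9 TPM in R7-II, 32.1 to 48.9 TPM in R7-I and 24.3 to 27.8 TPM in R7-III, with 6 of 6 called higher. Myeloid markers summed to 40.4, 22.8 and 79.1 TPM in R7-II against 4.52 to 6.66 TPM in the other clones, most of it Lyz2. Of 8 tested, 4 were called higher, which became 1 with quantile normalization and 7 without R7-II replicate 2. As ratios of mean TPM against the other clones, single B cell and MHC class II markers lay between 2.45 and 10.5. Of the myeloid markers Lyz2 was at 73.2 and 17.5 and Csf1r at 38.6 and 96.5. These myeloid ratios lie within the span of the 6 genes (9.43 to 159). Csf1r and Emr1, both called higher, had a mean of at most 1 TPM over the 9 libraries, so the ratios of Csf1r divide by very low means. Within R7-I, replicate 2 had the highest B cell sum (15.9 TPM), where Mturn, Arl4c and A630023P12Rik were at their lowest, Cd7 was in the middle, Nsg2 was at its highest and Slc6a19 shared its highest value with replicate 3. CD8 T cell markers were high in every library, summing to 3047 to 3094 TPM in R7-II, 2156 to 2188 TPM in R7-I and 2362 to 2419 TPM in R7-III. They were 1.41 and 1.28 times as high in R7-II, and replicate 2 was at 1.02 times the other R7-II libraries for them. In both comparisons 6 of 7 were called higher, which became 4 with median-of-ratios scaling and 7 with quantile normalization. Among the remaining lists, NK cell markers summed to at most 0.67 TPM, with Klra8 and Klra4 at 0 in every library, gamma-delta T cell markers to at most 1.33 TPM, platelet markers to at most 3.40 TPM, plasmacytoid dendritic cell markers to at most 5.45 TPM, and CD4 and regulatory T cell markers to at most 8.01 TPM. Erythroid markers summed to 44.0 to 129.4 TPM in R7-I, 1.95 to 21.3 TPM in R7-II and 13.3 to 39.4 TPM in R7-III. The part of the B cell, MHC class II and myeloid RNA in the levels of the 6 genes was not tested, and in bulk RNA fewer cells of a type cannot be told apart from less RNA per cell.

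**Figure D3:**
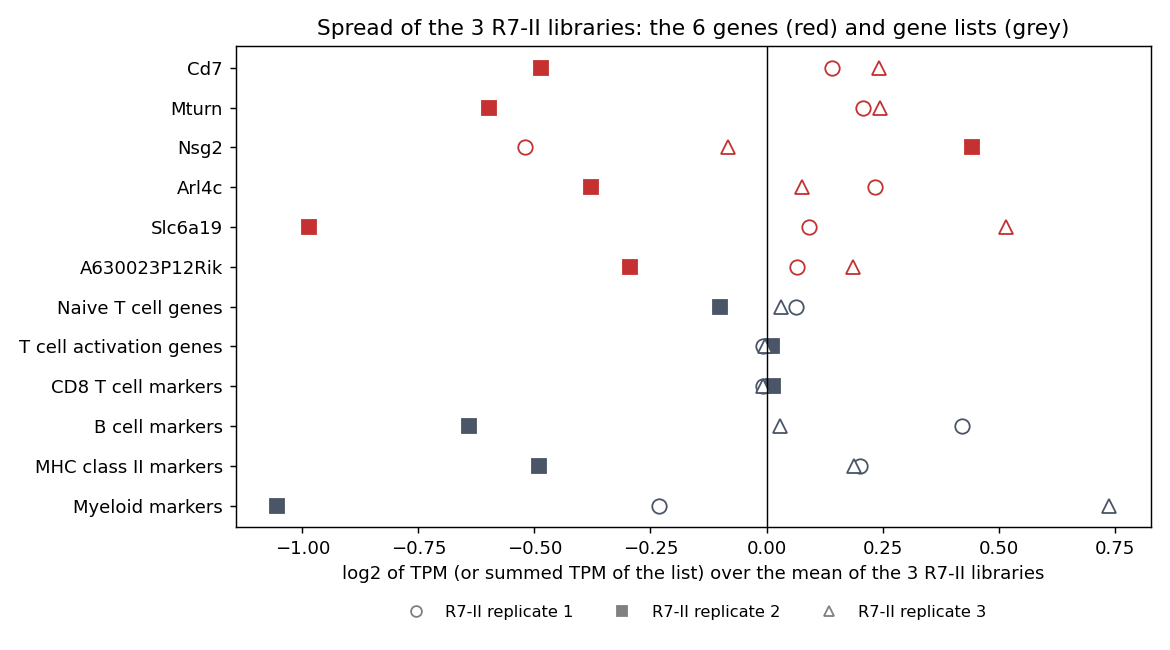
Each R7-II library relative to the mean of the 3, as log2 of TPM for the 6 genes (red) and of summed TPM for gene lists (grey); filled squares are replicate 2. Replicate 2 lies left of the mean for 5 of the 6 genes and for the B cell, MHC class II and myeloid markers, right of it for Nsg2, and close to it for T cell activation genes and CD8 T cell markers.

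The relatives and partners of the 6 genes were examined next, with limma on all genes and a Benjamini-Hochberg adjusted p of 0.01. At this threshold R7-II differed from R7-I in 56.1% of all genes tested (40.6% higher) and from R7-III in 53.6% (35.6% higher). R7-III differed from R7-I in 8.41% (6.96% higher). Called higher in R7-II in both comparisons were 31.9% of all genes, and called lower in both 12.8%. Of 41 tested genes in the families and partner lists, 58.5% were called in each comparison with R7-II, close to the share over all genes, with 13 higher in both and 4 lower in both. Between R7-III and R7-I 12.2% of them were called.

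CD7 binds SECTM1 proteins and galectin-1, and which of the mouse SECTM1 proteins binds mouse CD7 was not examined here. Sectm1a, which encodes one of the mouse SECTM1 proteins, was listed at 0 in all R7-II libraries, at 0.48, 0.47 and 0.56 TPM in R7-I, and averaged 1.47 ± 0.306 TPM (SD, n = 3 libraries) in R7-III, with no overlap between clones. It thus ran opposite to Cd7 and was lower in R7-II in both comparisons by limma (log2 difference -0.59, adjusted p = 0.00210, and -1.30, adjusted p = 9.65e-06). The call against R7-I was lost with a pseudocount of 5. All of these levels were below 2 TPM, and Sectm1a exceeded 1 TPM and passed the filter through R7-III alone, so a difference between R7-III and R7-II was built into its being tested. Sectm1b was listed at 0 in all 9 libraries. Lgals1, which encodes galectin-1, was at 59.79, 45.77 and 45.26 TPM in R7-II, at 39.28, 34.18 and 23.17 TPM in R7-III and at 15.02, 16.45 and 14.03 TPM in R7-I. Its log2 difference was 1.66 from R7-I (limma adjusted p = 9.65e-06) and 0.65 from R7-III (limma adjusted p = 0.00565). The second call was lost with median-of-ratios scaling (0.52), with quantile normalization (0.52), and without R7-II replicate 1 (0.52) or 2 (0.71), R7-III replicate 2 (0.70) or 3 (0.43), or R7-I replicate 1 (0.65).

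Other T cell surface glycoproteins were called in both directions. In both comparisons, 4 of 12 tested were called higher in R7-II and 2 lower. These counts are near the shares over all genes tested, 31.9% and 12.8%. Cd27 and Cd28, costimulatory receptors, were higher by 0.50 and 0.54 on the log2 scale against R7-I, and Cd48 and Cd247, the CD3 zeta chain, were the other two. Cd5 and Cd6, scavenger receptor glycoproteins that restrain receptor signals, were lower, Cd5 by -0.61 against R7-I and by -0.94 against R7-III.

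The close relatives of Arl4c were low or changed little. Arl4a was at 7.05 ± 0.547 TPM in R7-II, 4.89 ± 0.316 in R7-I and 5.16 ± 0.197 in R7-III (SD, n = 3 libraries each), a log2 difference of 0.45 and 0.38 (limma adjusted p = 5.04e-04 and 0.00149), which lost both calls with quantile normalization. Arl4d did not exceed 0.77 TPM in any library and was not tested. Among 19 other ARF and ARL GTPases, 3 were called higher in both comparisons and 0 lower, where 31.9% and 12.8% of all genes were. With median-of-ratios scaling 2 of the 19 were higher and 5 lower. The shares of all genes above are without that scaling. With it, the share of calls that were higher in R7-II fell over all genes too, from 72.4% to 46.2% against R7-I. Arl5c, a little-studied ARF-like gene, had the largest difference of them. It was at 33.18, 21.95 and 36.61 TPM in R7-II, at 7.43, 7.83 and 8.98 TPM in R7-I and at 7.28, 8.32 and 8.37 TPM in R7-III, and the groups did not overlap. Its log2 differences were 1.77 and 1.78 (limma adjusted p = 3.66e-06 and 3.58e-06), and replicate 2 was again the lowest R7-II library.

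RNAs of most genes listed as effectors of ARL4 GTPases were also higher in R7-II. Cytohesins are exchange factors that activate ARF GTPases at the plasma membrane, and filamin A crosslinks actin and binds ARL4 proteins. Of 5 tested genes 4 were called higher in both comparisons, where 31.9% of all genes tested were. The count was 4 also with median-of-ratios scaling, quantile normalization, the replicate block and without R7-II replicate 2. Cyth1 was at 70.54, 63.13 and 73.10 TPM in R7-II against 33.18, 34.38 and 34.18 TPM in R7-I and 32.21, 33.95 and 31.18 TPM in R7-III. The highest library of another clone was at 34.38 TPM, and the log2 differences were 1.00 and 1.06 (limma adjusted p = 1.89e-07 and 1.50e-07). Cyth3 and Cyth4 differed by 1.01 and 0.84 from R7-I, and Flna, the gene of filamin A, rose from 69.2 ± 0.757 TPM in R7-I and 76.2 ± 1.60 in R7-III to 133.8 ± 17.8 TPM in R7-II. Cyth2 was called higher against R7-III alone, with log2 differences of 0.18 from R7-I and 0.23 from R7-III, and that call was lost with median-of-ratios scaling, quantile normalization, the replicate block and without R7-I replicate 1 or 2, R7-II replicate 1 or 2, or any 1 of the R7-III libraries, and with no filter or only both clones compared.

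No other SLC6 gene tested was called higher in R7-II in both comparisons. The expression table held 18 SLC6 genes other than it, of which 2 passed the filter and 5 were listed at 0 in every library. Slc6a6, the taurine transporter, was the abundant member and was slightly lower in R7-II, by -0.29 and -0.18 on the log2 scale. Slc6a9, a glycine transporter, was at 11.12 to 14.83 TPM in R7-II, 10.59 to 12.57 TPM in R7-I and 15.35 to 16.21 TPM in R7-III and was not called in both comparisons. B0AT1 depends on collectrin to reach the surface of kidney cells, and the collectrin gene Tmem27 was listed at 0 in all 9 libraries. The nearest relative of Nsg2, Nsg1, did not exceed 0.11 TPM, so of the NSG genes Nsg2 was the one with a measurable level.

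**Figure D4:**
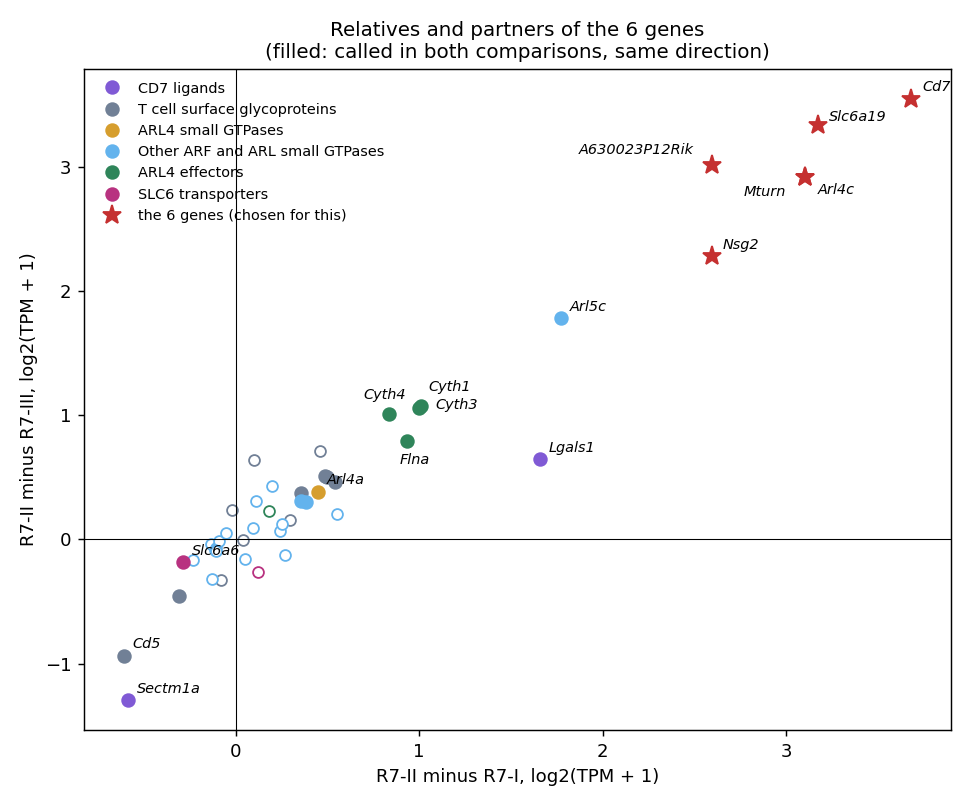
Tested relatives and partners of the 6 genes by their difference of mean log2(TPM + 1) between R7-II and R7-I (x axis) and between R7-II and R7-III (y axis), coloured by list and filled where called in both comparisons in the same direction; stars are the 6 genes, which were chosen for this difference. Most relatives lie within 1 of the origin, Arl5c is at 1.77 and 1.78, Cyth1, Cyth3, Cyth4 and Flna are near 1, and Sectm1a and Cd5 lie below 0 on both axes.

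For context, genes typical of naive T cells and genes of T cell activation were counted by the same test. Over all genes tested, the shares called against both other clones were 31.9% higher and 12.8% lower. In both comparisons 15 of 19 tested naive T cell genes were called higher in R7-II, and 1 was lower, with Klf2 (3.33 and 3.30), a transcription factor of quiescence and egress, and S1pr1 (3.75 and 3.97), the egress receptor, at the top and Dapl1 (-2.54 and -2.80) the exception. Klf2 and S1pr1 are on the study's list of genes most raised in R7-II. Dapl1 is on its list of those most lowered, as is the activation gene Tbx21. Both lists come from these same data. Among 20 tested activation genes 11 were called lower in both, with Gzmb, Tbx21 and Ifng among them, and 2 higher. The 2 higher ones were Nr4a1 (0.36 and 0.48) and Icos (1.07 and 1.19). The other 7, with Cd69 and Egr2 among them, were not called in both in the same direction. With median-of-ratios scaling the counts were 14 higher and 2 lower for naive genes and 1 higher and 14 lower for activation genes. The shares of all genes above are without that scaling, which also lowered the share of calls higher in R7-II over all genes.

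The profiles of the 6 genes over the 9 libraries were compared with those of all genes. The measure was the root mean square difference of their centred log2(TPM + 1) values. It is 0 for the same shape and size of change on that scale. Changes of genes with a low TPM are understated on it, so a small distance does not mean an equal ratio of TPM. The 3 groups and their libraries are shared by all profiles, so likeness is a description. Mturn and Arl4c were the closest pair among the 6, at 0.133, and Cd7 and Nsg2 the farthest, at 0.683. Every pair that included Nsg2 was at 0.457 or more. Mturn was nearest to Arhgef18 (0.0733), which encodes a guanine nucleotide exchange factor, and then to Arl4c itself, Pik3ip1, Trib2 and Ccr9. Arhgef18 was at 37.17, 23.39 and 37.37 TPM in R7-II and between 2.96 and 3.78 TPM elsewhere, with the same low replicate 2 as Mturn. Arl4c was nearest to Pik3ip1 (0.119), a negative regulator of PI3 kinase, and then to Tnfrsf26, Mturn, Arhgef18 and Ltb.

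Cd7 was nearest to Klf2 (0.216), S1pr1 (0.223), Rasgrp2 (0.231), Tnfrsf19 (0.246) and Slc6a19 (0.299), and the median over all genes of their distance to Cd7 was 1.66. Klf2 was at 119.1, 79.3 and 108.2 TPM in R7-II and between 8.40 and 10.0 TPM in the other clones, so both genes were low in R7-II replicate 2. Slc6a19 was nearest to Mturn (0.241), Klf2 (0.246), Arhgef18 (0.262), Pik3ip1 (0.274) and Tnfrsf19 (0.281). A630023P12Rik was nearest to Tcp11l2 (0.197), Itgae (0.247), the integrin alpha E chain, and Ccr9 (0.250), a homing receptor for the gut, followed by Ltb and Trib2. Nsg2 had other neighbours in this sense, Atp6v0e2 (0.179), a subunit of the vacuolar proton pump, Ctla4 (0.265), Hpcal1, Samhd1 and Itgb7. Atp6v0e2 was at 4.00, 5.29 and 4.21 TPM in R7-II and at most 0.11 TPM elsewhere, and like Nsg2 it was highest in replicate 2. No gene was among the 5 nearest of both Nsg2 and another of the 6.

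The 5 nearest tested genes on each side of each gene on the chromosome, 60 in all, were called about as often in either direction. Of these neighbours 38 were called against R7-I (20 higher and 18 lower in R7-II, 63.3% where 56.1% of all genes were called) and 37 against R7-III (19 higher and 18 lower, 61.7% where it was 53.6% of all genes), with median log2 differences of -0.05 and -0.02. In both comparisons 17 were higher and 16 lower, where 31.9% and 12.8% of all genes were. With median-of-ratios scaling the neighbour counts became 8 and 24, and the shares of all genes called in both are not given for it. Over all genes, that scaling moved the share of calls that were higher in R7-II from 72.4% to 46.2% against R7-I. Against R7-III it moved from 66.4% to 47.0%. Called in both and different by more than 2-fold in both, in the same direction, were 6 of the 60 (10.0%), against 5.28% of all genes tested. Of these 6, 4 were higher in R7-II and 2 lower, where 4.17% of all genes were higher and 1.11% lower by this rule.

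A pair of them are the next tested gene beside one of the chosen genes. Slc12a7, a potassium chloride cotransporter gene 32.3 kb from Slc6a19, was at 53.97, 36.02 and 54.52 TPM in R7-II, at 14.94, 15.23 and 15.39 TPM in R7-I and at 13.96, 13.39 and 15.97 TPM in R7-III. It shared with Slc6a19 the high R7-II libraries and the lower replicate 2, and its log2 differences were 1.58 and 1.65 (limma adjusted p = 2.98e-06 and 2.16e-06). Tert, the telomerase gene on the other side of Slc6a19, was not called in both. Galnt9, which encodes a glycosyltransferase of the O-glycan pathway, lies 18.1 kb from A630023P12Rik and was at 2.66, 2.48 and 2.80 TPM in R7-II against at most 0.87 TPM in the other libraries, so it passed the filter through R7-II alone and a difference was built into its being tested. Nod1, near Mturn, was at 7.06, 5.40 and 8.98 TPM in R7-II against 0.98 to 2.15 TPM elsewhere, and Narf, near Cd7, at 13.53, 10.30 and 9.96 TPM against 2.07 to 3.85 TPM. Trip13, near Slc6a19, and Stc2, near Nsg2, were the ones lower in R7-II. Sectm1a is the tested gene next to Cd7, at 27.9 kb, and as given above it was lower in R7-II where Cd7 was higher. The 2-fold rule was applied to log2(TPM + 1), and none of the 10 neighbours of Arl4c passed it in both comparisons. On the TPM scale Rbm44, one of these neighbours, was at 0.59, 1.01 and 0.36 TPM in R7-II, at most 0.05 TPM in R7-I and listed at 0 in R7-III.

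**Figure D5:**
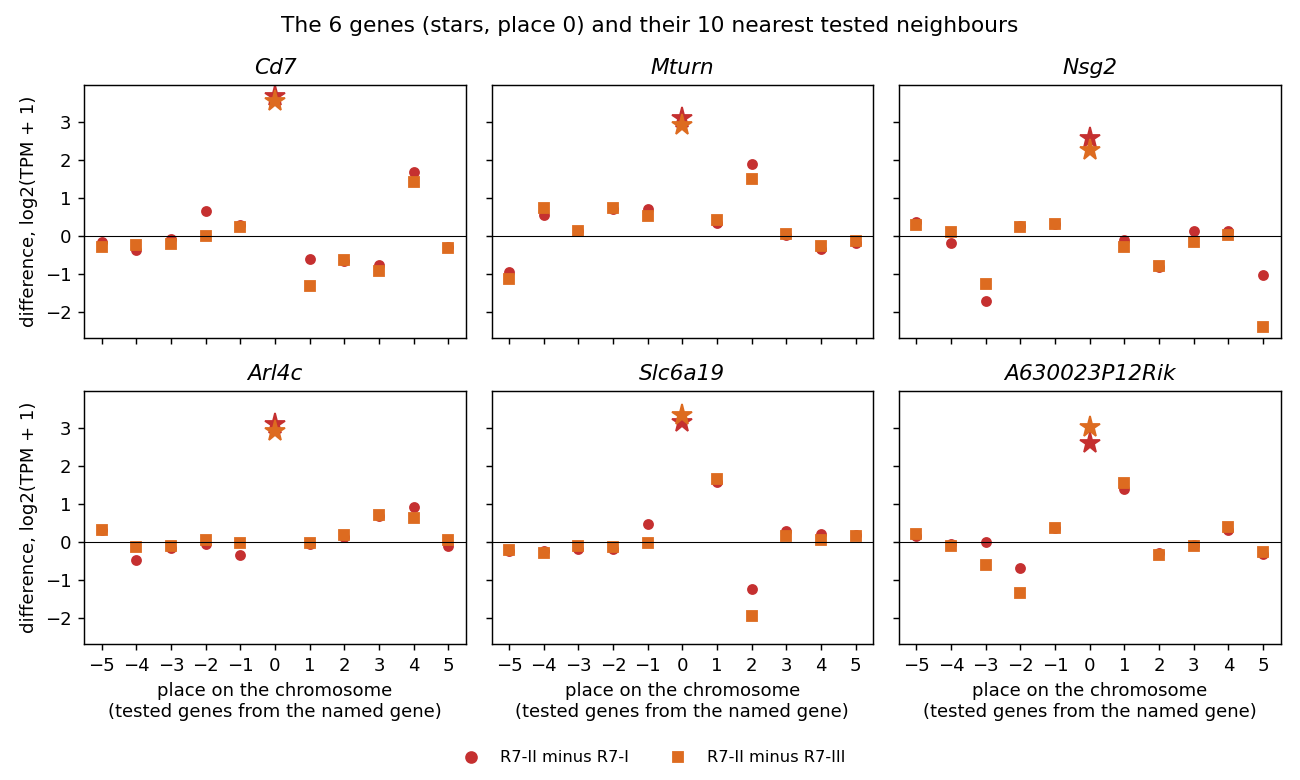
Difference of mean log2(TPM + 1) of R7-II from R7-I (circles) and from R7-III (squares) for the 10 nearest tested genes around each of the 6 genes, by their order along the chromosome (x axis, place 0 being the gene itself, drawn as stars). Slc12a7 at place 1 beside Slc6a19 and Galnt9 at place 1 beside A630023P12Rik are raised, Sectm1a at place 1 beside Cd7 is below 0, and most other neighbours lie between -1 and 1.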

How the data were processed

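The authors sequenced 100-base single-end reads without strand information from 9 libraries, 3 per clone, estimated gene levels with RSEM 1.2.11 on RefSeq genes of mm10, and deposited TPM values rounded to 2 decimals (which aligner RSEM called: not given in the sources used here). Depth cannot be read from TPM, and counting intervals are therefore left out. The authors tested counts with DESeq2 1.8.1, and those counts were not used here. Between 13738 and 14434 genes were above 0 in a library, and libraries of a clone had correlations of 0.992 to 0.997 across genes. Columns were matched to samples by name.

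Genes with a maximum TPM above 1 were kept. From log2(TPM + 1), differences and calls were computed with limma 3.58.1 in R 4.3.3 (trend, all 9 libraries in 1 fit, Benjamini-Hochberg adjustment over 11330 genes, threshold 0.01), and the fit was tested on simulated data. Other tables were made in Python 3.11.15 with pandas 2.3.3. The members and lists were chosen with earlier results of these data known. Named genes were the 6 chosen genes, members of the lists with the largest differences or levels, the 5 nearest profiles of each and the neighbours called and over 2-fold in both comparisons; Arhgef18, Atp6v0e2 and Klf2 were given by library after their values were seen. Positions were found for 99.6% of the genes tested in RefSeq and GENCODE tables of GRCm38, the same build as mm10. Whether replicates came from separate mice is not stated in the labels beyond the word biological, so p-values measure the spread between these libraries. Replicate numbers did not pair the libraries (correlations of deviations from the clone mean between -0.0449 and 0.0888). Alternatives were other pseudocounts, filters, scalings and thresholds, fits of 2 clones, the replicate block and leaving out each library.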

Additional observations from a re-analysis of the deposited data

How the results depend on the processing

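The log2 differences of the 6 genes stayed positive for R7-II against both other clones, and all 6 genes stayed higher in R7-II, in each alternative computed. Their size depended on the scale. The median over the 6 genes against R7-I was 4.60 with a pseudocount of 0.1, 1.54 with a pseudocount of 5, 2.80 with quantile normalization and 4.89 as the log2 ratio of mean TPM, and against R7-III it was 4.24, 1.53 and 4.44 with the pseudocounts and as the ratio. Leaving out 1 library at a time gave 2.92 to 3.31 and 2.89 to 3.15.

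Of the 80 tested list genes, 57, 55 and 7 were called in R7-II against R7-I, R7-II against R7-III and R7-III against R7-I. The first 2 counts lay between 51 and 59 and between 49 and 57 with a library left out. The third was 12 with only both clones compared, 17 at an adjusted p of 0.05 and between 1 and 10 with a library left out, at most 3 without any one of the R7-I or R7-III libraries. Called neighbours numbered 18 and 18 with the nearest 2 genes on each side of each of the 6 genes. That set is smaller than the 60 above, so the count dropped while the share called was higher. Among the 60 the shares were 63.3% and 61.7%, and over all genes tested 56.1% and 53.6%. Of the 60, between 32 and 38 and between 29 and 37 were called with a library left out. The 6 called between R7-III and R7-I became 2 to 5. Replicate numbers did not pair the libraries, and with the replicate block the list genes called were 53, 52 and 7 and the neighbours 38, 36 and 3. Median-of-ratios scaling moved the share of called genes that were higher in R7-II from 72.4% to 46.2% against R7-I and from 66.4% to 47.0% against R7-III, and quantile normalization moved it to 45.9% and 49.3%. Small differences changed sign with it: Exoc3, a neighbour of Slc6a19, became -0.0192 and -0.00208 with quantile normalization, and Hibadh, a neighbour of Mturn, became -0.0424 with median-of-ratios scaling. The cause was not tested.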
